A study of Saccharomyces cerevisiae with 27 samples.

Results

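RME1 (YGR044C), NEJ1 (YLR265C), HO (YDL227C) and AXL1 (YPR122W) are genes of budding yeast that haploid cells express and diploid cells keep off. They were chosen by name as haploid-specific genes outside the pheromone pathway, and they are 4 of the 6664 genes in the deposited RNA table. RME1 encodes a zinc-finger protein that represses IME1 and so keeps haploid cells out of meiosis. NEJ1 encodes a factor of non-homologous end joining, which rejoins broken DNA ends without a template. HO encodes the endonuclease that cuts the mating-type locus to start a switch of mating type. AXL1 encodes a protease that trims the a-factor pheromone precursor and is also needed for the axial budding pattern of haploid cells.

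In a diploid cell the a1 protein, made from the a allele of the mating-type locus, joins with alpha2, made from the alpha allele, and the pair represses the haploid-specific genes. Haploid cells carry complete but silent copies of both alleles at HML and HMR, which the Sir proteins hold in closed chromatin, so a haploid that loses silencing can make both proteins at once. Arp5 and Ies6 form a module of INO80, a remodelling complex that moves and edits nucleosomes. Ies2 is another subunit of it, and Ino80 is the ATPase. Trimethylation of lysine 4 of histone H3 (H3K4me3) lies over the first part of transcribed genes, and trimethylation of lysine 79 (H3K79me3) lies along gene bodies.

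RNA came from the wild type BY4741 and its deletions sir3, arp5, ies6 and ies2, from the double deletion sir3 arp5, and from the wild type CY337 with its ino80 deletion. All cultures for RNA were in YPD medium, at an OD600 between 0.8 and 1. The labels list 3 RNA libraries for BY4741, sir3, arp5 and ies6, 2 for ies2, CY337 and ino80, and 1 for the double deletion, but the table holds 1 FPKM column for each of 8 genotypes. FPKM scales the fragments read from a gene by its length and by the size of the library, so levels of different genes can be set side by side. The table gives no value per library, so no difference below has an SD or a test, and read depth is unknown. Chromatin of BY4741 and of arp5 was read for H3K4me3 and for H3K79me3 with an input, 1 library of each kind. Arp5 binding came from 1 library and its input of strain CY1838, whose cells left a nocodazole arrest in the presence of alpha-factor and whose chromatin was cut with micrococcal nuclease.

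The strain names held at the deleted genes. SIR3 stood at 0.0572 FPKM in sir3, IES6 at 0.225 in ies6 and INO80 at 0.523 in ino80, against 10.04, 185 and 22.1 in their wild types. Both arp5 and the double deletion had ARP5 listed at 0, and ies2 had IES2 listed at 0. The chromatin libraries titled arp5 have WT as their genotype tag. Over the ARP5 gene, the authors' deposited table of H3K79me3 in arp5 over BY4741 stood at -8.42 on the log2 scale, lower than over any other gene. Markers of a cells were high in BY4741, a haploid of mating type a, with STE2, the alpha-factor receptor gene, at 432 FPKM, and the alpha-factor gene MF(ALPHA)1 stood at 2.11.

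RME1 had the highest RNA level of these genes in every genotype. It stood at 103 FPKM in BY4741, 75.5 in ies2, 28.3 in ies6, 19.99 in arp5, 9.17 in the double deletion and 6.70 in sir3. In the CY337 background it stood at 147 FPKM in CY337 and 73.2 in ino80. The sir3 level was 6.49% of the wild type, the arp5 level 19.4% and the ies6 level 27.4%, so the order ran from sir3 through arp5 to ies6. The ies2 level was 73.1% of the wild type. In bulk cultures, here and below, fewer cells with the RNA and less RNA in each cell cannot be told apart.

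NEJ1 stood at 40.9 FPKM in BY4741, 27.9 in ies2, 5.33 in arp5, 2.70 in ies6, 2.55 in the double deletion and 2.496 in sir3. In the other background it was 15.1 FPKM in CY337 and 10.8 in ino80. Here ies6, the double deletion and sir3 were alike, at 6.60%, 6.24% and 6.10% of the wild type. Unlike RME1, NEJ1 was lower in ies6 than in arp5.

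HO stood at 26.4 FPKM in BY4741, 30.9 in ies2, 7.22 in the double deletion, 5.61 in arp5, 3.53 in ies6 and 2.04 in sir3. In the other background it was 23.6 FPKM in CY337 and 15.1 in ino80. The sir3 level was 7.72% of the wild type, and HO was the only one of these genes with more RNA in ies2 than in BY4741, at 117%. Laboratory strains related to BY4741 carry an inactive ho allele, so these values describe RNA and not switching.

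AXL1 had the lowest level of these genes in BY4741 and, over the whole gene, changed least. It stood at 17.3 FPKM in BY4741, 16.3 in ies2, 8.51 in arp5, 7.61 in ies6, 7.55 in the double deletion and 6.08 in sir3. In the other background it was 29.7 FPKM in CY337 and 22.2 in ino80. The sir3 level was 35.1% of the wild type and the arp5 level 49.2%. The distance between the wild type and the lowest mutant was 2.85-fold for AXL1, against 16.4-fold for NEJ1, 15.4-fold for RME1 and 12.96-fold for HO.

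**Figure D1:**
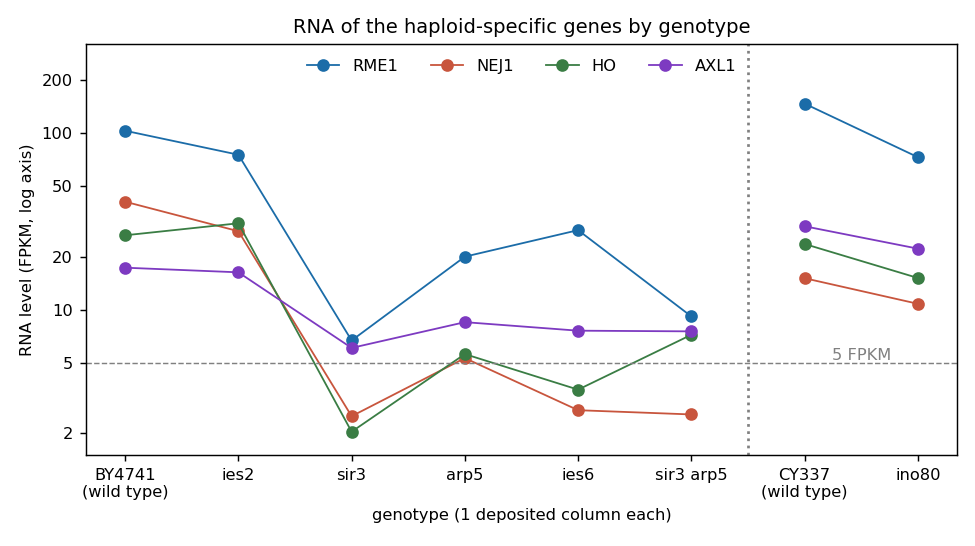
RNA level (FPKM, log axis) of the 4 genes in each genotype, 1 point per deposited column, with a dotted line between the BY4741 and CY337 backgrounds and a dashed line at 5 FPKM. The sir3, arp5, ies6 and double-deletion points of each gene lie below its BY4741 and ies2 points, with RME1 on top throughout.

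Changes were then expressed as log2 of (FPKM + 1) in the mutant minus the same in its wild type, a scale that understates changes of low genes. A gene was counted as lower or higher past 2-fold when it also had at least 5 FPKM in either genotype. In sir3, which lacks the silencing protein, all 4 genes were more than 2-fold lower, as were 2.16% of all 6217 genes counted. Their log2 changes were -3.76 for RME1, -3.58 for NEJ1, -3.17 for HO and -1.37 for AXL1, and the median over all genes was 0.0034. Only 20 genes had a lower value than RME1, 22 than NEJ1 and 28 than HO, while 87 were below AXL1.

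In arp5, 3 of the 4 genes were more than 2-fold lower, against 4.0% of all genes. NEJ1 stood at -2.73, RME1 at -2.31 and HO at -2.05, and AXL1 at -0.95 lay just inside the threshold. With a pseudocount of 0.1 FPKM or with quantile normalization AXL1 passed it, at -1.02 and -1.08. In ies6 all 4 genes were more than 2-fold lower, against 3.64% of all genes: the log2 change was -3.50 for NEJ1, -2.60 for HO, -1.83 for RME1 and -1.09 for AXL1. AXL1 was again at the edge, and at a pseudocount of 5 FPKM its ies6 value was -0.82. These mutants share the BY4741 column as their control.

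In ies2, 0 of the 4 genes passed 2-fold, against 1.88% of genes lower and 3.89% higher. The log2 changes were -0.54 for NEJ1, -0.45 for RME1, -0.082 for AXL1 and 0.22 for HO. In ino80 against CY337, 0 of the 4 genes passed either, against 5.14% of genes lower and 8.26% higher. RME1 stood at -0.997, HO at -0.61, NEJ1 at -0.45 and AXL1 at -0.41. RME1 was at 49.8% of its wild type by FPKM and crossed the threshold, at -1.01, with a pseudocount of 0.1 FPKM. Both RNA strains of this pair come from another background than BY4741, so how ino80 differs from arp5 was not tested.

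**Figure D2:**
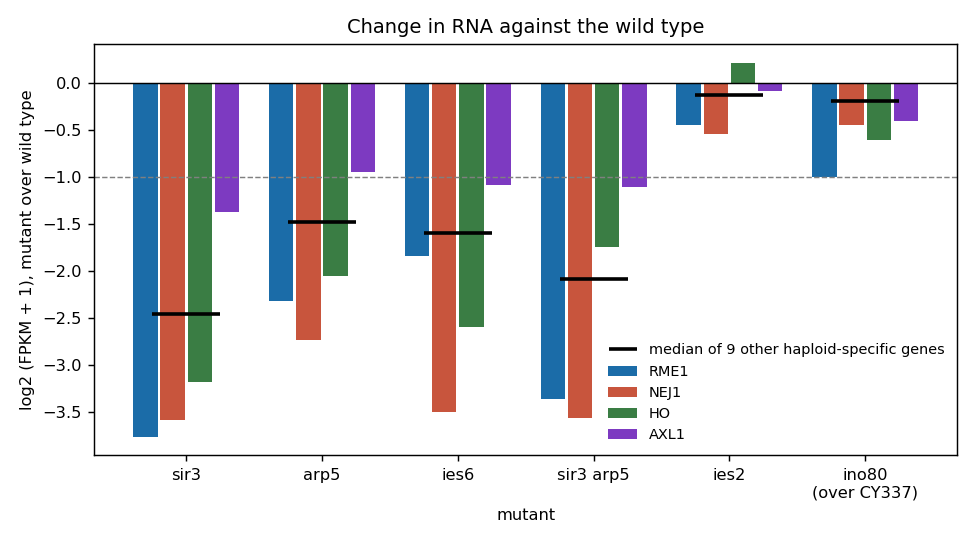
Log2 change of (FPKM + 1) in each mutant against its wild type (BY4741, or CY337 for ino80), with 1 bar per gene, a dashed line at 2-fold lower and a black bar at the median of 9 other haploid-specific genes. RME1, NEJ1 and HO pass the dashed line in sir3, arp5, ies6 and the double deletion, AXL1 lies near it in arp5 and ies6, and no bar passes it in ies2 or ino80.

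The double deletion, which asks whether losing both proteins adds to either loss, had all 4 genes more than 2-fold lower than BY4741, among 10.4% of all genes. The log2 changes were -3.56 for NEJ1, -3.36 for RME1, -1.74 for HO and -1.10 for AXL1. Against sir3, HO was higher in the double deletion, at 1.44, where 13.8% of genes were higher. RME1 stood at 0.40, AXL1 at 0.27, and NEJ1, with 2.55 and 2.496 FPKM, was too low to be counted. Against arp5, RME1 was lower, at -1.05, where 6.55% of genes were lower. NEJ1 stood at -0.83, AXL1 at -0.15 and HO at 0.31. RME1 in the double deletion thus lay nearer its sir3 level, and HO and, by a small margin, AXL1 lay nearer their arp5 levels. NEJ1 lay near its sir3 level, but at values too low to be counted. The column rests on 1 library, and genes shorter than 150 bp held 65.9% of its summed FPKM, against 43.8% to 46.5% in the other BY4741-background columns; the part of this in these values was not tested. At a pseudocount of 5 FPKM the calls ended for AXL1 against BY4741, for HO against sir3 and for RME1 against arp5, with -0.83, 0.80 and -0.82, and HO was not counted when a mean of at least 10 FPKM was required.

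Between the wild types, NEJ1 was lower in CY337 than in BY4741, at -1.38, among 3.10% of genes lower. The median over all genes was shifted by 0.37 in the same comparison. RME1 stood at 0.51, AXL1 at 0.75 and HO at -0.16, so relative to that shift HO was also low and RME1 close to the rest. HO was at 89.3% and NEJ1 at 36.9% of the BY4741 level by FPKM.

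The genes of the silent cassettes were read beside these levels. HMLALPHA1 and HMLALPHA2, the alpha genes of the silent cassette, were listed at 0 FPKM in BY4741, ies2, CY337 and ino80. HMLALPHA1 stood at 2.38 FPKM in sir3, 3.49 in arp5, 5.49 in ies6 and 2.77 in the double deletion. HMLALPHA2, which carries the repressor sequence, stood at 2.21, 1.19 and 1.69 FPKM in sir3, arp5 and ies6 and was listed at 0 in the double deletion. The cassette genes share their sequence with the mating-type locus, so these low values are uncertain, and their part in the levels of RME1, NEJ1, HO and AXL1 was not tested. HMRA1, at 330 FPKM in BY4741, stood at 408 in sir3, 308 in the double deletion, 128 in ies6 and 86.8 in arp5. HMRA1 thus had no common direction among these mutants. It stood at 189 FPKM in CY337 and 423 in ino80.

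The other lists were chosen with results of these data known and serve as a frame. Of 9 other haploid-specific genes, mostly of the pheromone pathway, 9 were more than 2-fold lower in sir3, 7 in arp5, 8 in ies6, 7 in the double deletion and 0 in both ies2 and ino80. Their median log2 change was -2.45 in sir3, -1.47 in arp5 and -1.59 in ies6, against -3.38, -2.18 and -2.22 for RME1, NEJ1, HO and AXL1 together. RDH54, a recombination factor that is haploid-specific like NEJ1, went from 23.5 FPKM to 3.79 in sir3, 7.84 in arp5 and 7.14 in ies6. All 7 a-specific genes were lower in these 3 mutants and in the double deletion, whereas in ies2 none was lower.

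Most of the genes that work with RME1, NEJ1, HO or AXL1 stayed within 2-fold, as most genes did. Of 11 genes for entry into meiosis and other RME1 targets, 10 were counted. Among them, 1 was lower in sir3, 1 in arp5 and 0 in ies6, against 2.16%, 4.0% and 3.64% of all genes. IME1, the master regulator of meiosis that RME1 represses, stood at 9.05 FPKM in BY4741, 10.8 in sir3, 4.92 in arp5, 6.17 in ies6, 11.9 in ies2 and 12.7 in the double deletion. It showed no common direction among the mutants with little RME1 RNA. CLN2, a G1 cyclin gene that RME1 can activate, stood at 32.997 FPKM in BY4741 between 26.1 and 27.6 in sir3, arp5 and ies6, and 46.7 in the double deletion. The gene that was lower was IME4, an mRNA methyltransferase gene, which went from 37.7 FPKM in BY4741 to 12.9 in sir3, 14.04 in arp5 and 18.8 in ies6. An antisense RNA made in haploid cells overlaps IME4, and without strand information reads of the gene and its antisense partner cannot be told apart.

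NEJ1 was lower in sir3, arp5 and ies6, whereas the other end-joining genes stayed within 2-fold there, as most genes did. Of 9 other genes of that pathway, 0 were more than 2-fold lower or higher in sir3, arp5, ies6 or ies2, and their median log2 change lay between -0.086 and 0.042. LIF1, which encodes the ligase partner that Nej1 binds, stood at 16.9 FPKM in BY4741, 17.4 in sir3, 15.9985 in arp5 and 17.4 in ies6. DNL4, the ligase gene, stood at 8.92, 7.15, 6.70 and 7.02 FPKM in the same order. YKU70, a DNA end-binding subunit gene, had 19.3 FPKM in BY4741 and 6.45 in the double deletion, the single lower call of the list there.

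Of 15 regulators of HO, 0 passed 2-fold in sir3, arp5 or ies6, near the share of all genes lower in each. NHP6B, a gene for a chromatin-bending protein, came nearest to it among them, with 782 FPKM in BY4741, 788 in sir3, 429 in arp5 and 440 in ies6. SWI5, the activator that enters the nucleus late in mitosis, stood at 21.7 FPKM in BY4741, 13.99 in sir3, 14.3 in arp5 and 18.4 in ies6. ASH1, the daughter-cell repressor of HO, stood at 58.2, 53.5, 55.2 and 53.9 FPKM in the same order. GCN5, a histone acetyltransferase gene, stood at 55.7 FPKM in BY4741 and 35.7 in arp5.

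For AXL1, 0 of 10 bud-site genes passed 2-fold in sir3, arp5 or ies6, again near the share of all genes lower. AXL2, an axial landmark gene, stood at 23.5 FPKM in BY4741, 15.3 in sir3, 19.7 in arp5 and 19.5 in ies6. In the list of a-factor processing and export, STE6, the a-factor transporter and an a-specific gene, was lower in all 3, at 3.52, 7.35 and 4.70 FPKM against 48.0 in BY4741. STE14, which methylates a-factor, went from 142 FPKM to 37.4 in sir3 but stood at 140 in arp5 and 74.9 in ies6. STE23, a protease whose role in a-factor maturation overlaps that of Axl1, stood at 22.7 FPKM in BY4741, 25.03 in sir3, 39.2 in arp5 and 27.4 in ies6.

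Chromosome position gave no shared change of this size. RME1 lies on chromosome VII at 582990-583892, NEJ1 on XII at 674427-675455 and HO on IV at 46271-48031, all on the minus strand, and AXL1 on XVI at 782045-785671 on the plus strand, in sacCer3. HO is 47150 bp from a chromosome end and the others lie at least 164208 bp away from one. The median log2 change of their chromosomes in sir3 lay within 0.02 of 0, and in arp5 it was -0.13 for VII, -0.11 for IV and -0.087 for XVI. Chromosome XII, which holds NEJ1, stood at 0.38 in arp5, opposite in sign to NEJ1.

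The nearest genes stayed within 2-fold in sir3. NQM1, the gene after the 3′ end of RME1, went from 16.4 FPKM to 24.7 in sir3, 78.5 in arp5, 263 in ies6 and 149 in ies2. YGR045C, 41 bp upstream of RME1, stood at 3.44 FPKM in BY4741 and 2.91 in sir3, too low to be counted. It was more than 2-fold higher in arp5, ies6, ies2 and the double deletion, at 8.02, 9.59, 11.01 and 10.4 FPKM. PDR8, a transcription factor gene 163 bp upstream of NEJ1, stood at 20.9 FPKM in BY4741, 17.9 in sir3 and 25.8 in arp5. GCS1, upstream of HO, stood at 134 FPKM in BY4741 and between 96.0 and 115 in sir3, arp5 and ies6. THI22, upstream of AXL1, stood at 9.59 FPKM in BY4741 and between 8.21 and 10.9 in those mutants. YPR123C, 469 bp past the 3′ end of AXL1 on the opposite strand, stood at 22.8 FPKM in BY4741, 16.3 in sir3, 11.4 in arp5, 25.2 in ies6 and 9.98 in the double deletion. Its log2 change was -0.94 in arp5 and -1.12 in the double deletion, close to that of AXL1, and its part in the AXL1 values was not tested.

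The deposited metagene tables show where along each gene the RNA differed. Each gene has 35 windows there, 15 of them equal parts of the gene, with 10 windows of 100 bp on either side, and each window gives the mutant over its wild type on a log2 scale. In the authors' deposited table for sir3, all 15 gene windows were below 0 for each of the 4 genes, with medians of -3.91 for NEJ1, -3.54 for HO, -2.89 for RME1 and -1.60 for AXL1. In the authors' deposited table for arp5 the medians were -2.55 for NEJ1, -1.99 for HO, -1.59 for RME1 and -1.25 for AXL1, and in that for ies6 they were -3.05, -2.52, -1.23 and -1.10. For RME1, NEJ1 and HO all 15 windows were below 0 in both, whereas AXL1 had 2 windows above 0 in each.

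AXL1 differed between its ends. Cut into 3 equal parts from 5′ to 3′, AXL1 had medians of -2.28, -1.25 and -0.10 in the authors' deposited table for arp5. The same parts stood at -2.69, -1.10 and -0.095 in the authors' deposited table for ies6, and at -3.32, -1.60 and -0.78 in that for sir3. The 5′ part of AXL1 therefore lay among the lowest of the 6692 genes in those tables, with 0.16%, 0.15% and 0.13% of genes lower in arp5, ies6 and sir3, while 28.8%, 24.1% and 2.63% were lower than its 3′ part. A gradient of the same direction was present in the authors' deposited tables for ies2, from -0.50 to 0.29, and for ino80, from -0.65 to 1.08. Lower 5′ than 3′ values were not particular to AXL1. HO ran from -4.83 through -3.55 to -2.98 in the authors' deposited table for sir3, and NEJ1 from -3.08 through -2.22 to -2.04 in that for arp5. In the authors' deposited tables for arp5 and ies6, HO went the other way, from -1.91 to -2.10 and from -2.15 to -2.52. NEJ1 was lowest in its middle part in those for ies6 and sir3, at -3.84 and -4.29. RME1 ran from -2.001 to -1.39 in the authors' deposited table for arp5 and from -1.65 to -1.10 in that for ies6, but from -2.89 to -2.99 in that for sir3. In arp5 and ies6 the 3′ parts of RME1, NEJ1 and HO all stayed below -1. The FPKM of AXL1 averages over the whole gene, so it is smaller in change than the 5′ part of the gene; the split into 3 parts was chosen after the profiles were seen.

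**Figure D3:**
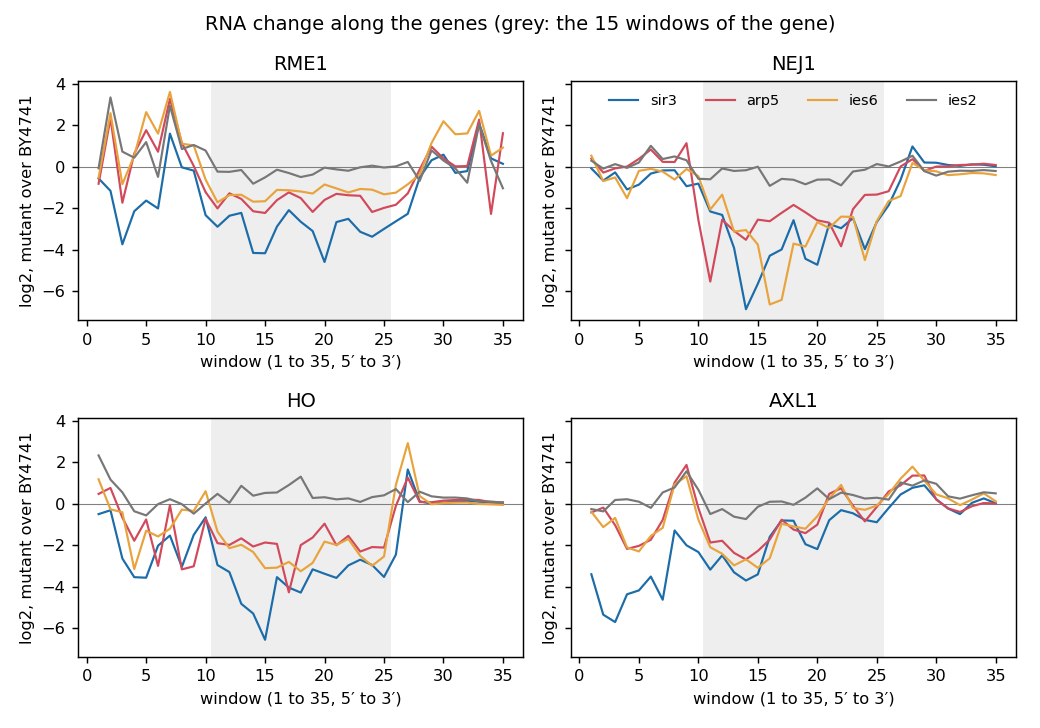
Log2 ratio of RNA, mutant over BY4741, in the 35 windows of the authors' deposited metagene tables for the 4 genes, with 1 line per mutant and the gene in grey. RME1, NEJ1 and HO are low through the whole gene in sir3, arp5 and ies6, whereas AXL1 is low at its 5′ end and near 0 at its 3′ end in arp5 and ies6.

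Upstream RNA of AXL1 also differed. The 10 windows before AXL1 had a median of -3.85 in the authors' deposited table for sir3, below all but 0.030% of genes, while the arp5 and ies6 tables gave -0.60 and -0.95. HO stood at 0.42 in the authors' deposited metagene table for ino80 but at -0.61 by FPKM, so its direction in ino80 depends on the table; the median over genes was 0.20 in that table. Tables by strand covered 1553 genes and held RME1 and NEJ1 but neither HO nor AXL1. NEJ1 stood at 2.33 over the gene in the authors' deposited antisense table for ies6, with 97.9% of genes lower, while the sense table gave -2.20. NEJ1 antisense was 0.67 in the authors' deposited table for arp5 and 0 in that for sir3. For NEJ1 in ies6, 15 of 15 gene windows were below 0 in the sense table and 14 were above 0 in the antisense table. The library kit named in the labels does not keep strand, whereas these tables differ by strand. How they were made, and so what these strand values measure, is uncertain.

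Among the 4 genes, H3K4me3 differed most at the starts of AXL1 and NEJ1. Levels are medians of log2 of precipitate over input in windows of 50 bp, and differences are medians of the arp5 minus BY4741 value of each window. Such a median is not the difference of the 2 levels and can even differ from it in sign where the profile changes shape, as for H3K4me3 over the whole of AXL1, with levels of -2.31 and -2.58 and a median window difference of 0.11. Over the first 500 bp, H3K4me3 of AXL1 was 1.82 in BY4741 and -2.56 in arp5, a difference of -4.29, and only 1 of 6664 genes had a lower one. H3K4me3 of NEJ1 went from 1.15 to -2.67, a difference of -3.90 with 4 genes lower. Both had 10 of 10 windows in the authors' list of significant H3K4me3 windows in BY4741.

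RME1 and HO differed less in H3K4me3. RME1 went from 0.71 to -0.24 over its first 500 bp, a difference of -0.92 with 4.34% of genes lower. HO was low in both strains, at -1.94 and -3.11, with a median window difference of -0.65 and 7.80% of genes lower. HO had 0 of 36 gene windows in the significant list for either mark in BY4741. A median window difference below -1 held for 2 of the 4 genes, NEJ1 and AXL1, where 3.42% of all genes had one, and for 7 of the 9 other haploid-specific genes. Among these, FUS3, a mitogen-activated kinase gene, stood at -4.05, FAR1, a cell-cycle inhibitor gene, at -3.45, and RDH54 at -0.21. RNA over the 5′ part of the genes in arp5, from the authors' deposited metagene table, stood at -3.08 for NEJ1, -2.28 for AXL1, -2.001 for RME1 and -1.91 for HO.

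H3K4me3 was not lost along the whole of AXL1. In BY4741 its highest window, at 2.33, lay 180 bp from the start of the gene. In arp5 the highest window, at 1.33, lay 2930 bp from the start, in the 3′ part of the 3627 bp gene. Over the 3′ part, the last of 3 equal parts, the level went from -2.28 in BY4741 to 0.24 in arp5, a difference of 2.69, and 8 of 6203 genes of at least 300 bp had a higher one. This is the part of AXL1 whose RNA was near the wild-type level in arp5.

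HO shared with AXL1 the higher 3′ level in arp5, but had no 5′ peak in BY4741. Its 5′ part differed by -0.49, with 14.2% of genes lower. Its 3′ part went from -1.89 in BY4741 to 0.24 in arp5, a difference of 1.92 with 34 genes higher, and its highest arp5 window, at 0.89, lay 1356 bp from the start of the 1761 bp gene. Over the 3′ part of HO, unlike AXL1, RNA was low in arp5, with a median of -2.10 in the authors' deposited metagene table. NEJ1 differed least in H3K4me3 at its 3′ end, where the 3′ part stood at 1.19 in BY4741 and 0.47 in arp5, a stretch that runs towards the next gene. The differences of RME1 were -1.06, -0.72 and -0.67 from its 5′ to its 3′ part.

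**Figure D4:**
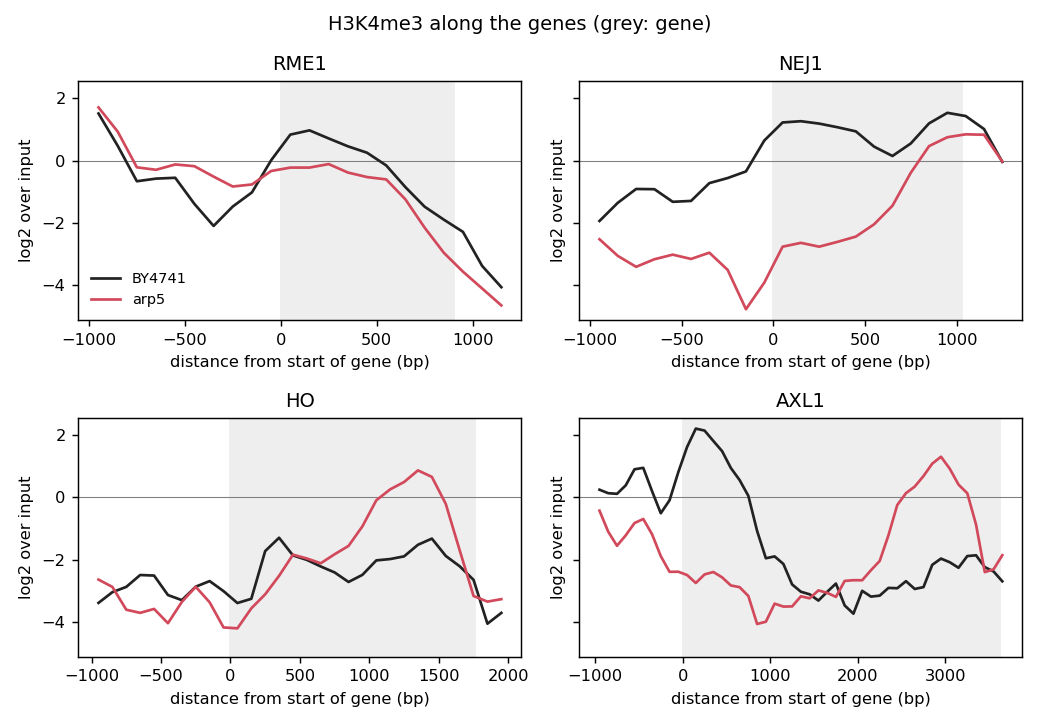
H3K4me3 (log2 over input, mean of the 50 bp windows in bins of 100 bp) by distance from the start of each gene in BY4741 and arp5, 1 library each, with the gene in grey. The peak over the 5′ part of AXL1 and the level over the 5′ part of NEJ1 are absent in arp5, and a peak above 0 lies within the 3′ part of AXL1 and of HO in arp5 alone.

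Among the 4 genes, H3K79me3 fell most over AXL1 in arp5. Over the gene it stood at 0.71 in BY4741 and -0.19 in arp5, a difference of -0.997 with 8 of 6664 genes lower, and 47 of its 72 windows were in the authors' significant list for BY4741. In the ratio of arp5 to BY4741 that stands in the authors' deposited table, AXL1 stood at -0.79, with 0.78% of genes lower. The difference was -1.09 in the 5′ part and -1.16 in the middle part of AXL1, against -0.36 in the 3′ part. RME1, NEJ1 and HO had 0 significant windows for this mark and levels of -0.93, -0.78 and -1.65 in BY4741. Their differences over the gene were 0.37, -0.33 and 0.96. Over the first 500 bp, a difference below -1 held for 1 of the 4 genes and for 2 of the 9 other haploid-specific genes, where 0.285% of all genes had one. Over the gene, the differences of those 9 genes ran from -1.15 for FUS3, with 3 genes lower, to 0.060 for AMN1, with a median of -0.46. A lower level over the gene was thus not particular to AXL1.

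Before their starts all 4 genes had more H3K79me3 in arp5. The difference over 500 bp was 1.22 for RME1, 1.16 for NEJ1, 1.08 for HO and 1.07 for AXL1, against a median of 0.41 over genes, and between 91.6% and 95.1% of genes were lower. These stretches were low in BY4741, between -2.33 and -1.96. The arp5 track spans less than the wild-type track, with 95% of windows between -2.11 and 1.06 against -3.16 and 1.41. Its low end was thus higher and its high end lower, and the part of this in the values here was not tested.

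**Figure D5:**
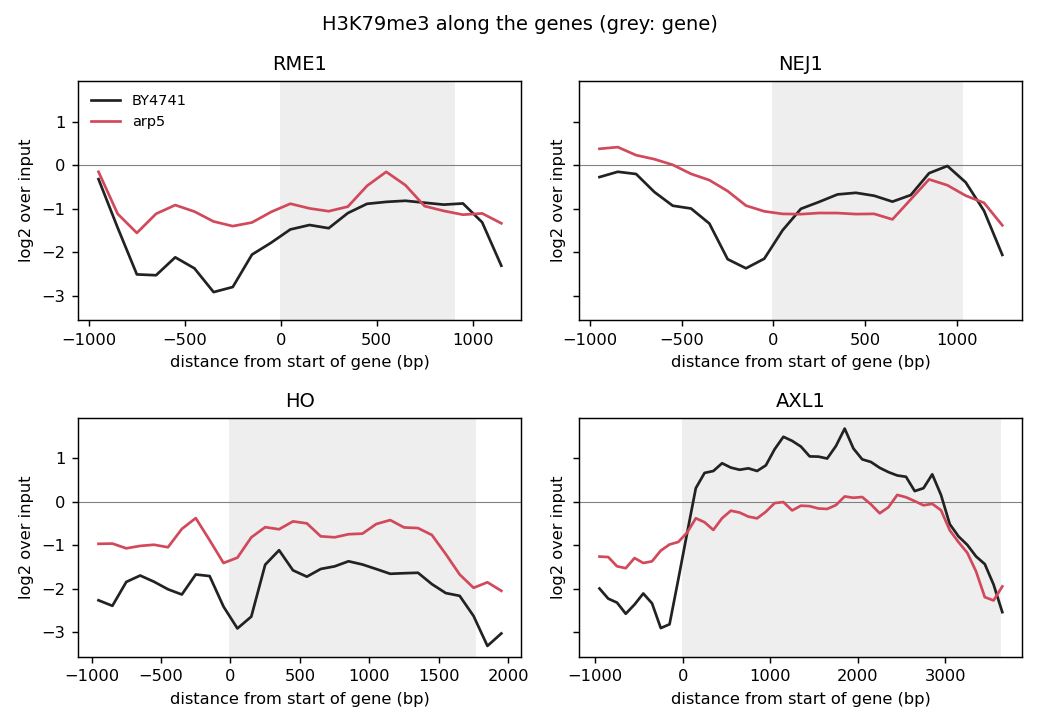
H3K79me3 (log2 over input, mean of the 50 bp windows in bins of 100 bp) by distance from the start of each gene in BY4741 and arp5, 1 library each, with the gene in grey. AXL1 is the only one of the 4 with a high level over the gene in BY4741, and its arp5 line lies lower over most of the gene but not upstream of it.

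Arp5 windows lay upstream of each gene, as they did for 90.6% of all genes. The authors' list of significant Arp5 windows held 10 of the 10 windows before RME1 and before AXL1, 7 of 10 before HO and 4 of 10 before NEJ1, and the median over genes was 70%. The median log2 over those windows was 1.59 for AXL1 and 1.42 for RME1, above 99.6% and 98.6% of the 6040 genes with any such window. NEJ1, at 0.47, and HO, at 0.41, lay below the median of 0.65. Upstream Arp5 thus stood above the median over genes at AXL1 and RME1 and below it at NEJ1 and HO. These cells were held in alpha-factor, while the RNA came from growing cultures.

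Across the 8 columns the genes resembled one another, with Pearson's r of log2(FPKM + 1) between 0.78 for NEJ1 with AXL1 and 0.93 for RME1 with AXL1. The columns fall into high and low genotypes and share a wild type, so these values are descriptions. Among 6329 genes with a mean of at least 5 FPKM, the 3 most like RME1 were GYP8 (0.97), the a-factor gene MFA1 (0.97) and STE4 (0.97), which encodes the beta subunit of the pheromone G protein. GYP8, a GTPase activator gene, went from 30.4 FPKM in BY4741 to 12.4 in sir3; it lies 667 bp from the divergent a-specific gene STE2. Those most like NEJ1 were ICS2 (0.98), ASG7 (0.94) and MFA2 (0.92), the latter pair a-specific, and HO came next.

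Those most like HO were YGL193C (0.98), AMN1 (0.97) and AGA2 (0.96). YGL193C went from 96.8 FPKM in BY4741 to 9.17 in sir3, 28.6 in arp5 and 22.6 in ies6. It lies 18 bp from IME4 and is transcribed away from it. AMN1, a daughter-cell gene of mitotic exit control, and ICS2 are divergent neighbours on chromosome II, 2238 bp apart. Those most like AXL1 were the agglutinin gene AGA1 (0.99) and the retrotransposon reading frames YGR027W-B (0.99) and YML039W (0.99), whose reads many near-identical copies share. AGA1 was higher in CY337 than in BY4741, at 98.1 and 35.8 FPKM, as was AXL1. With Spearman's rho, 0 of these 3 genes stayed for RME1 and 0 for AXL1.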

How the data were processed

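The RNA table deposited by the authors gives FPKM for 8 genotypes. Per the submitters' processing notes, Cuffdiff 2.0.2, Bowtie and TopHat2 2.0.8 were used with sacCer3. Libraries were pooled before deposit in a way that the sources used here do not state. For ChIP, the authors deposited log2 of precipitate over input per 50 bp window, and the submitters' processing notes name Bowtie 0.12.9. The sources used here give neither its scaling nor the caller of significant windows. The metagene tables deposited by the authors are log2 of mutant over wild type per window, and the ino80 tables by strand were not used here. Depth is unknown because read totals are absent, so counting intervals are not given.

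Log2(FPKM + 1) differences were computed for 9 comparisons, with at least 5 FPKM in either genotype and a 2-fold threshold. The planned fit across libraries could not be made with 1 column per genotype, so no test was run. ChIP regions were the gene, its first 500 bp and the 500 bp before it. Symbols matched 5989 genes. Alternatives changed the pseudocount, scaling, filter, promoter length and the mean or median. The RNA change of a gene was called moved only when its call at the 2-fold threshold changed. Counts, list medians and window values were called moved when they changed by over 1.5 times. A planned search of promoters for motifs was not run, as no sequence was used here. The members and the gene lists were chosen with earlier results of these data known. The named genes were the 4 members, list genes, deleted genes, neighbours and the 3 genes most like each member; the split of genes into 3 parts and any list gene outside its extremes were chosen after their values were seen. Scripts used Python 3.11.15, pandas 2.3.3, NumPy 2.4.6 and Matplotlib 3.10.9, and were tested on simulated data.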

Additional observations from a re-analysis of the deposited data

How the results depend on the processing

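Of 360 alternative values for the main results, 341 were labelled the same, 19 moved and 0 reversed. Of 702 for other results, 29 moved. The RNA change of a gene was labelled by its call at 2-fold alone, so its size could differ under the same label. With a pseudocount of 0.1 FPKM, AXL1 in arp5 stood at -1.02, RME1 in ino80 at -1.01 (1 gene lower there) and NEJ1 in the double deletion over arp5 at -1.03 (2 genes lower). With 5 FPKM, AXL1 stood at -0.82 in ies6 and -0.83 in the double deletion, HO at 0.80 over sir3 and RME1 at -0.82 over arp5, which left 0 genes past 2-fold in both comparisons. Quantile normalization gave -1.08 for AXL1 in arp5 and -1.07 for NEJ1 over arp5 (2 genes lower). Requiring a mean of 10 FPKM left 0 genes higher in the double deletion over sir3. By construction a larger pseudocount shrinks changes of low genes. In arp5, H3K4me3 before NEJ1 was -4.05 over 300 bp, and the mean over the gene was -1.59 for NEJ1 and -1.95 for AXL1, which had -1.72 in BY4741; the cause was not tested. No paired analysis was possible because each genotype has 1 pooled column, which also kept single libraries from being left out. Unknown depth limits what levels near 2 FPKM, as for NEJ1 and HO in sir3, can show.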

Other observations

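Of 4 alpha-specific genes, 3 were counted in sir3, where MF(ALPHA)1 was too low, and 0 of these were more than 2-fold higher. All 4 were counted in the other mutants, with 1 higher in each of arp5, ies6, ies2 and the double deletion, and 2 in ino80. In all of these mutants 0 were lower. Of all genes counted, 3.89% were higher in ies2 and 8.26% in ino80. The shares higher in the other mutants are not given here, so the counts are not read as a result about the list. MF(ALPHA)1, the alpha-factor gene, stood at 2.11 FPKM in BY4741, 1.36 in sir3, 28.2 in arp5, 69.7 in ies6, 5.46 in ies2 and 27.6 in the double deletion, and at 0.718 in CY337 and 28.2 in ino80. MF(ALPHA)1 was thus higher than in the wild type in every mutant but sir3, where RME1 was lowest. On the log2 scale RME1 differed by -3.36 in the double deletion, -2.31 in arp5, -1.83 in ies6, -0.997 in ino80 and -0.45 in ies2. STE3, the a-factor receptor gene, stood at 7.19 FPKM in BY4741, 8.75 in sir3, 14.01 in arp5 and 10.2 in ies6. TUP1, which encodes a co-repressor that works with alpha2, stood at 57.8 FPKM in BY4741, 68.1 in sir3, 38.997 in arp5, 37.1 in ies6 and 195 in the double deletion.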
